A study of Mus musculus with 8 samples.

Results

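The genes described here encode the proteins of the cytosolic ribosome, the particle that translates messenger RNA in the cytoplasm. They were taken as the protein-coding genes whose symbol begins with Rpl or Rps followed by a digit, or is Rpsa, leaving out the Rps6k kinases and pseudogenes. For each gene the probe set (the group of array probes that measures 1 transcript) had to be annotated to that gene alone, and where a gene had several, 1 was selected on its log2 signal, as the brightest on average across the 8 arrays. This gave 44 genes, of 30637 genes tested in all. The mean signal that chose the probe sets includes both groups, and the difference between groups was not used for that choice. The gene family itself was chosen with earlier results of these data known. RefSeq lists 88 protein-coding genes under this symbol rule: 37 of them share every probe set with other genes or copies and 7 are not listed in the platform annotation used here, so these 44 further genes are not described one by one. Of the 44 measured genes, 26 carry a large subunit name (17 standard ribosomal proteins and 9 paralogs or gene copies), 17 a small subunit name (15 and 2), and 1, Rps19bp1, is a binding partner of the Rps19 protein and not part of the ribosome.

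Liver RNA was measured on an Affymetrix array from 8 male C57BL/6 mice, all of them kept on a high fat diet for 13 weeks as a model of hypercholesterolemia. Both groups had 5 intraperitoneal injections: 4 mice were given anti-miR-128-3p, which blocks the microRNA miR-128-3p, and 4 mice a control that the labels call vehicle in 1 place and do not describe further. The treatment field names the microRNA itself where the titles and the design name its inhibitor. The groups follow the titles. The age of the mice is not given in the sources used here. That each array is a separate mouse is taken from the numbered titles and the stated group size. If it were not so, the p-values would measure only the spread between arrays. Values are log2 signals after RMA, so that a difference of 1 is a factor of 2 in signal. Median signals of the genes lay between 5.04 and 5.12 on the 8 arrays, against 4.32 to 4.48 for the negative control rows. Below, the level of the negative controls means this median. The brightest few percent of the negative control rows lay above 7.40 to 7.53, depending on the array. Rpl7 (mean log2 signal 6.89), Rpl6 (6.90), Rps9 (6.34), Rpl31 (5.30) and other ribosomal protein genes were dimmer than that, whereas 20 had a mean of 8 or more. Signal alone does not set the dimmer genes apart from the brightest negative controls. The arrays correlated across genes at 0.992 to 0.996. Of the hepatocyte markers listed (Alb, Ttr and others), 8 of 10 were measured, with a mean log2 signal of 12.9 to 13.1 on every array. Of these, 3 were higher and 5 lower in treated livers, with log2 differences from -0.24 (Hnf4a) to 0.04 (Alb).

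A ribosome has a small subunit, which reads the messenger, and a large subunit, which joins amino acids. Each holds 1 copy of most of its proteins, so cells tend to produce these proteins in balanced amounts. In vertebrates nearly all of their messenger RNAs begin with a C and a run of pyrimidines (C or T), the 5′ terminal oligopyrimidine or TOP motif. Through it the kinase mTOR and the RNA-binding protein Larp1 control their translation, a step that an RNA array does not see. Ribosomal protein messengers are also among the most frequent sources of processed pseudogenes, DNA copies of a messenger scattered over the genome, which matters for how an array probe reads them.

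The microRNA against which the inhibitor is directed has 21 bases in RefSeq (GRCm38.p6), and is encoded at 2 loci with the same mature sequence. It is shown because it is what separates the groups, with its seed (bases 2 to 8) in capitals.
mmu-miR-128-3p: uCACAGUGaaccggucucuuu

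The start regions of 7 of the genes are shown next, as 15 bases before and 15 bases from the annotated start onward, 5′ to 3′ on the gene's strand (RefSeq, GRCm38.p6). They were picked after their values were seen, to set genes with a large positive difference (Rps4x, Rps3a1, Rpl35, Rpl37a) beside genes with a TOP-like start (Rpl35, Rpl38, Rps18) and beside Rps15, which had the lowest difference. Capitals mark each C followed by at least 4 bases that are all C or T. They lie at chrX:102189377-102189406 (minus strand), chr3:86142654-86142683 (minus), chr2:39005117-39005146 (minus), chr1:72711245-72711274 (plus), chr11:114668565-114668594 (plus), chr17:33955651-33955680 (minus) and chr10:80292416-80292445 (plus), in the order printed.
Rps4x: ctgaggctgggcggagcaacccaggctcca
Rps3a1: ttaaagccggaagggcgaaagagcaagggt
Rpl35: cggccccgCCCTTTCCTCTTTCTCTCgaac
Rpl37a: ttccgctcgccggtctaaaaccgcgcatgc
Rpl38: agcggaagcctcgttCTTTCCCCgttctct
Rps18: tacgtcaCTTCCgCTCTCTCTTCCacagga
Rps15: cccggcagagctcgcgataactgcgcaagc

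A start region was listed for 38 of the 44 genes. A C and 4 pyrimidines stood exactly at an annotated start in 5 of them, or 13.2%, against 2.67% of the 17492 protein-coding genes with a start region. Anywhere in the 30 bases, on the gene's strand, such a run was present in 25 of the 38 (65.8%), against 40.9% of all. The letters CCGGAA, on either strand (TTCCGG on the other) and anywhere from 250 bases before to 50 after the start, were present in 20 of the 38 (52.6%), against 20.9% of all. CCGGAA holds the core that Ets family factors recognise, and the match is a description of the letters only. The median log2 difference between treated and control livers was 0.12 for the 20 with CCGGAA and 0.12 for the 18 without. It was 0.10 for the 25 with a pyrimidine run anywhere in the 30 bases and 0.17 for the 13 without, but 0.13 for the 5 with the run exactly at a start and 0.12 for the 33 without. Some genes had several annotated starts, and annotated starts were not checked against measured ones. The 33 are therefore not shown to lack a TOP motif.

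Most ribosomal protein genes were slightly brighter in anti-miR-128-3p livers than in control livers. A log2 difference above 0 was found in 37 of 44 genes, against 49.1% of all genes tested, and after quantile normalization in 36, where Rpl4 changed sign. The median log2 difference was 0.12, a 1.09-fold difference, against -0.0017 over all genes, and single genes ranged from -0.20 to 0.34. None of the 44 passed the test once p-values were adjusted over all genes. By limma, 0 of the 30637 genes (0.0%) had an adjusted p under 0.05, and Rps4x came closest of the 44, at an adjusted p of 0.20. At an unadjusted p under 0.05 by limma, 18 of the 44 genes were higher and 0 lower, where 4.26% of all genes tested were higher and 3.37% lower at that level. All 4 treated livers lay above all 4 control livers in 10 of the 44, against 2.52% of all genes, and below them in 0, against 1.89%. Related genes and their copies can share probe sequence, so these counts are not counts of separate events.

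**Figure D1:**
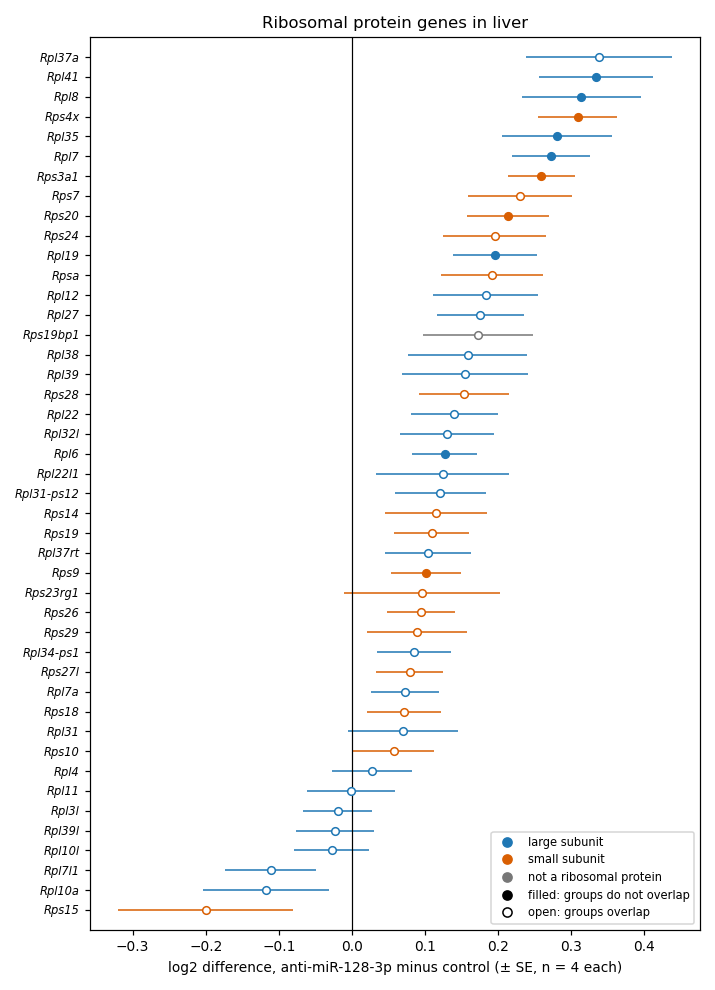
Log2 difference in signal (anti-miR-128-3p minus control, horizontal axis, points with limma's SE, 4 livers per group) for each of the 44 genes, coloured by subunit. Of the 44, 37 lie to the right of 0, and the 10 filled points are genes in which the treated and control livers did not overlap.

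Among small subunit genes, Rps4x had the smallest p. Rps4x, an X-linked gene whose protein lies in the body of the small subunit, was at 7.63, 7.61, 7.54 and 7.60 in control replicates 1 to 4 and at 7.96, 7.87, 7.80 and 7.996 in treated replicates 1 to 4 (log2 signal). All treated livers were higher than all control livers, by at least 0.16. The difference was 0.31 ± 0.05 (log2 difference ± SE), a 1.24-fold difference with a limma adjusted p of 0.20.

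Rps3a1, whose protein sits near the exit of the messenger channel, was at 9.77, 9.74, 9.73 and 9.62 in control and at 10.001, 9.96, 9.96 and 9.97 in the treated group. The treated livers were close together (SD 0.02, n = 4) and all above the control livers (SD 0.07), with a difference of 0.26 ± 0.05 and a limma adjusted p of 0.202. Rps20, a protein of the head of the small subunit, was at 7.52, 7.40, 7.37 and 7.37 in control and at 7.72, 7.64, 7.54 and 7.61 in the treated group. Its groups were separated by a narrow gap of 0.02, between control replicate 1 and treated replicate 3, and the difference was 0.21 ± 0.06 (limma adjusted p = 0.345). Rps9 was the fourth small subunit gene without overlap, at 6.19 to 6.35 in the control group and 6.36 to 6.42 in the treated group, a difference of 0.10 ± 0.05 (limma adjusted p = 0.689).

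Other small subunit genes differed in the same direction with overlapping groups. Rps7 was higher by 0.23 ± 0.07 and Rps24 by 0.20 ± 0.07. Rpsa, whose protein is also known as the laminin receptor precursor, was at 8.98, 9.03, 8.98 and 8.94 in control and 9.15, 9.30, 8.99 and 9.27 in the treated group, a difference of 0.19 ± 0.07 in which treated replicate 3 fell among the controls. Rps28 was higher by 0.15 ± 0.06, with treated replicate 3 again the lowest treated liver at 5.79, below 3 of the controls. Rps19, the gene most often mutated in the inherited anaemia named after Diamond and Blackfan, differed by 0.11 ± 0.05, and Rps14 by 0.12 ± 0.07. Differences for Rps26 (0.09 ± 0.05), Rps29 (0.09 ± 0.07), Rps18 (0.07 ± 0.05) and Rps10 (0.06 ± 0.06) were smaller.

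Rps15 alone among the small subunit genes was lower in treated livers. This protein of the small subunit head was at 8.26, 8.60, 8.09 and 8.42 in control and at 8.12, 8.35, 7.92 and 8.18 in the treated group. The groups overlapped, both spread widely (SD 0.22 and 0.17, n = 4 each), and the difference of -0.20 ± 0.12 had a limma adjusted p of 0.769. Without control replicate 2 it was -0.12.

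Of the large subunit genes, 20 of 26 were higher. At an unadjusted p under 0.05 by limma, 10 of them (38.5%) were higher, against 4.26% of all genes. In 6 (23.1%) the treated livers lay all above the control livers, against 2.52%. Rpl7, whose protein binds the large ribosomal RNA, was at 6.89, 6.75, 6.68 and 6.71 in control and at 7.01, 7.04, 7.01 and 7.04 in the treated group. The treated livers agreed to within an SD of 0.02, and the difference was 0.27 ± 0.05 (limma adjusted p = 0.207). Rpl41 encodes the smallest ribosomal protein and was at 10.84, 10.55, 10.80 and 10.94 in control and 11.08, 11.17, 11.10 and 11.12 in the treated group. Control replicate 2 was the lowest and the difference was 0.33 ± 0.08, a 1.26-fold difference (limma adjusted p = 0.287). This probe set lies on another chromosome than the gene, and a dimmer probe set on the gene's own chromosome differed by 0.13 ± 0.08. Rpl8, whose protein lies beside the catalytic centre, was at 9.58, 9.74, 9.80 and 9.63 in control and 9.98, 10.15, 9.81 and 10.07 in the treated group. Treated replicate 3 exceeded control replicate 3 by only 0.0068, and the difference was 0.31 ± 0.08 (limma adjusted p = 0.345).

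Rpl35, a protein at the mouth of the tunnel through which new chains leave, was at 9.90, 9.99, 9.86 and 9.91 in control and 10.38, 10.24, 10.02 and 10.14 in the treated group, a difference of 0.28 ± 0.07. Rpl19 was at 9.21, 9.25, 9.33 and 9.11 in control and 9.49, 9.42, 9.35 and 9.42 in the treated group, a difference of 0.20 ± 0.06. Rpl6 differed by 0.13 ± 0.04, with control replicate 1 at 6.92 next to treated livers of 6.94 to 6.998. In these 3 genes the groups did not overlap, by gaps of 0.03, 0.02 and 0.02 (limma adjusted p of 0.361, 0.435 and 0.550).

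**Figure D2:**
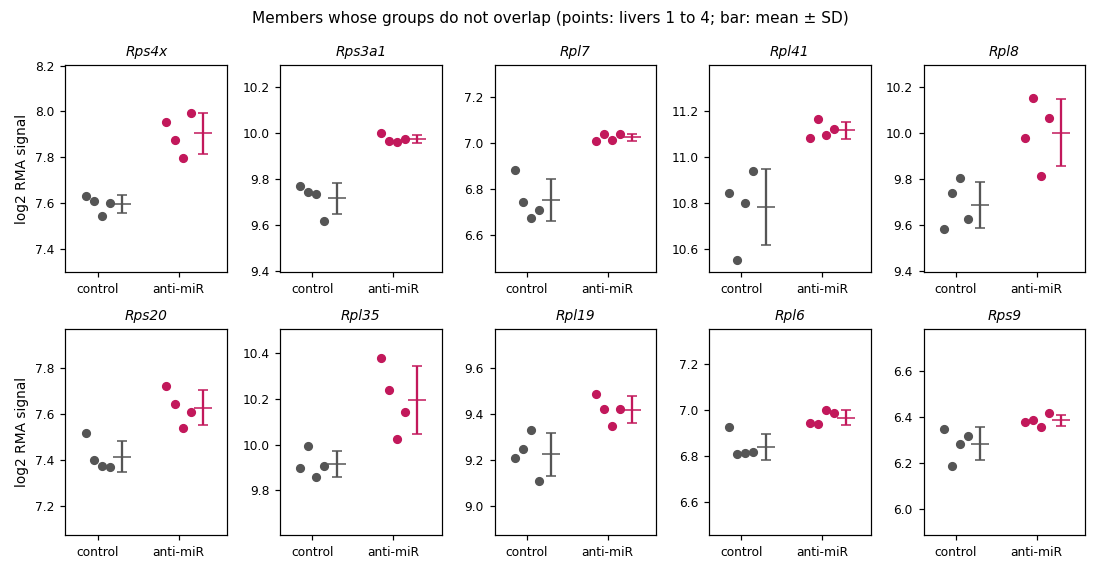
Log2 RMA signal (vertical axis, each panel spanning the same range of log2 units around its own mean) in each control and anti-miR-128-3p liver for the 10 genes whose groups did not overlap, with the mean and SD of each group of 4 at its right. Rps4x, Rps3a1, Rpl7 and Rpl41 show gaps of 0.13 to 0.19, whereas in the other genes the gap is 0.03 or less. Rpl41 and Rpl35 are read by probe sets on another chromosome than the gene.

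Rpl37a had the largest log2 difference of the 44 genes, 0.34 ± 0.10, but overlapping groups. It was at 7.74, 7.82, 7.73 and 7.78 in control and 8.20, 8.25, 7.77 and 8.20 in the treated group, so that treated replicate 3 alone lay among the controls, and without that liver the difference was 0.45. Rpl27 (0.18 ± 0.06), Rpl12 (0.18 ± 0.07) and Rpl22 (0.14 ± 0.06) were the other large subunit genes at an unadjusted p under 0.05. Rpl38, known for its part in translating Hox messengers, differed by 0.16 ± 0.08, Rpl39 by 0.15 ± 0.09 and Rpl7a by 0.07 ± 0.05. Rpl31, on a probe set at 5.30, differed by 0.07 ± 0.08.

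Of the standard large subunit genes, Rpl11 and Rpl4 showed little or no difference, and Rpl10a was lower in treated livers with overlapping groups. Rpl11, which with Rpl5 carries the 5S RNA and can bind the p53 regulator Mdm2, was at 6.28 ± 0.11 (mean ± SD, n = 4) in control and 6.28 ± 0.04 in the treated group. Its difference of -0.0016 ± 0.06 changed sign with array weights and without control replicate 2 or treated replicate 2. Rpl4 was at 11.48 ± 0.09 and 11.51 ± 0.04, a difference of 0.03 ± 0.05. Rpl10a was lower in treated livers by a log2 difference of -0.12 ± 0.09, with control replicate 4 at 9.20 against 8.71 to 8.91 in the other 7 livers, and without that liver the difference was -0.03.

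The large and small subunit genes differed by about the same amount. Their median log2 differences were 0.13 (26 genes) and 0.11 (17 genes), and large minus small was 0.017. With the standard ribosomal proteins alone the medians were 0.16 (17 genes) and 0.12 (15 genes). The mean over large subunit genes of the signal minus each gene's own mean, less the same for small subunit genes, was -0.02, -0.01, 0.02 and 0.03 in control replicates 1 to 4. In treated replicates 1 to 4 it was 0.02, -0.01, 0.03 and -0.05. The groups overlapped, and the order of the medians turned without control replicate 2 (-0.0049), control replicate 3 (-0.0032) or treated replicate 3 (-0.02), so no order of the subunits is read from these data.

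Paralogs and copies of ribosomal protein genes had smaller differences. Of 11, 7 were higher and 4 lower, with a median log2 difference of 0.09, and 0 had an unadjusted p under 0.05 by limma. Of the 32 standard genes 29 were higher, 17 at that p (53.1%, against 4.26% of all genes), with a median of 0.15. The difference between these classes was not tested. Rpl3l, the striated muscle counterpart of Rpl3, was at 4.54 ± 0.02 in control and 4.52 ± 0.07 in the treated group. Rpl39l, a testis paralog, was at 4.60 ± 0.04 and 4.57 ± 0.09. Both lie close to the arrays' negative controls, and whether a difference could be detected at this signal was not tested. Rpl10l, expressed in testis, was at 5.74 ± 0.09 and 5.72 ± 0.02. Rpl22l1, the paralog of Rpl22, was at 4.44 ± 0.08 and 4.56 ± 0.19, also near the negative controls.

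Rps27l, a p53-induced relative of Rps27, differed by 0.08 ± 0.05, from 8.04 ± 0.05 to 8.11 ± 0.05. Rpl7l1, a nucleolar relative of Rpl7, was lower by a log2 difference of -0.11 ± 0.06, at 8.60, 8.53, 8.51 and 8.62 in control and 8.35, 8.61, 8.45 and 8.41 in the treated group. Treated replicate 2 alone lay among its controls. The copies Rpl32l (0.13 ± 0.06), Rpl31-ps12 (0.12 ± 0.06), Rpl37rt (0.10 ± 0.06), Rps23rg1 (0.10 ± 0.11) and Rpl34-ps1 (0.09 ± 0.05), which RefSeq lists as protein-coding, were higher with overlapping groups. Rps19bp1 differed by 0.17 ± 0.07, with treated replicate 4 at 7.43, below control replicates 1 and 3.

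The probe sets of copies and of their parent genes cannot be fully told apart. The chromosome in the probe set's identifier differed from that of the gene in RefSeq for 6 of the 44 genes: Rpl7a, Rpl12, Rpl27, Rpl31, Rpl35 and Rpl41. These probe sets lie at other places in the genome, such as chromosome 14 for Rpl41, whose gene is on chromosome 10. All 6 were higher, with a median log2 difference of 0.18. The 38 genes read on their own chromosome had a median of 0.12, with 31 higher. At an unadjusted p under 0.05 by limma, 14 of the 38 (36.8%) were higher, against 4.26% of all genes. Where both kinds existed, Rpl41 differed by 0.13 ± 0.08 on its own chromosome against 0.33 ± 0.08. Rpl35 differed by 0.26 ± 0.07 against 0.28 ± 0.07, Rpl27 by 0.06 ± 0.06 against 0.18 ± 0.06 and Rpl7a by 0.08 ± 0.04 against 0.07 ± 0.05. Rps26, described by its own chromosome, differed there by 0.09 ± 0.05. Its other probe sets differed by 0.08 ± 0.05 on chromosome 8 and by -0.08 ± 0.08 on chromosome 12, the latter at a log2 signal of 3.46.

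Ribosomal protein pseudogenes with a probe set of their own moved in the same direction. Of 206, 188 were higher and 18 lower, with a median log2 difference of 0.14. At an unadjusted p under 0.05 by limma, 96 (46.6%) were higher and 1 lower, against 4.26% and 3.37% of all genes. In 64 (31.1%) all treated livers lay above all control livers, against 2.52%. At a mean signal of 8 or more, 56.8% of 118 pseudogenes were higher at that p. The share at that signal was 8.96% for all genes and 3.23% for protein-coding genes. Whether these probe sets read the copies or the messengers of the parent genes was not tested. The 36 ribosomal protein genes read through probe sets that name several genes behaved likewise: 34 were higher, 16 (44.4%) at an unadjusted p under 0.05, with a median of 0.12.

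The level of the ribosomal protein genes differed between livers of 1 group. Their mean gene-centred signal was -0.04, -0.06, -0.09 and -0.06 in control replicates 1 to 4, and 0.09, 0.10, 0.0045 and 0.05 in treated replicates 1 to 4. Every treated liver lay above every control liver, and treated replicate 3 was the nearest to the controls. It was the lowest treated liver in 22 of the 44 genes, and control replicate 3 the lowest control liver in 16. The highest of the 8 livers was a treated one in 37 genes and the lowest was a control in 38. Without treated replicate 3 the median was 0.12. At an unadjusted p under 0.05 by limma, 19 genes were then higher, against 4.63% of all genes in that fit. Over all single livers left out, the median ran from 0.11 to 0.15. The count of higher genes then ran from 13 to 21, and the share of all genes from 3.18% to 4.7%. At that p, 1 gene was lower without control replicate 3 and 1 without treated replicate 2.

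**Figure D3:**
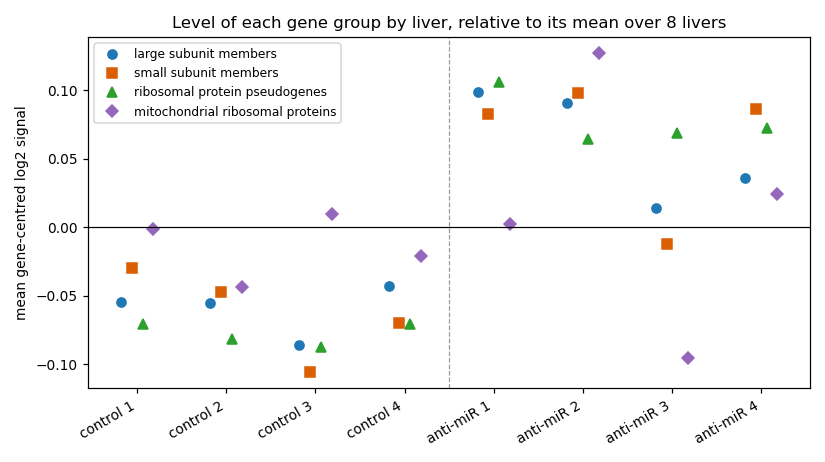
Mean gene-centred log2 signal (vertical axis) in each of the 8 livers for large subunit genes, small subunit genes, ribosomal protein pseudogenes and mitochondrial ribosomal protein genes. The first 3 groups are lower in all control livers (-0.11 to -0.03) than in treated livers (-0.01 to 0.11), and the mitochondrial group overlaps between groups.

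Markers of other liver cells also differed between these livers. Of the Kupffer cell and macrophage markers 13 of 13 were measured, 12 of them higher in treated livers and none at the level of the negative controls. Their mean log2 signal ran from 7.13 to 8.15 in control and from 7.73 to 8.79 in treated livers. Their gene-centred mean was -0.16, 0.06, -0.92 and 0.11 in control replicates 1 to 4 and 0.74, -0.32, 0.34 and 0.15 in treated replicates 1 to 4, so the groups overlapped. Control replicate 3 was lowest for both these markers and the ribosomal protein genes. Treated replicates 1 and 2 had the highest ribosomal protein levels of the 8 livers, nearly equal at 0.0941 and 0.0951. For these markers replicate 1 was the highest of the 8 livers and replicate 2 the lowest treated liver. Stellate cell and fibroblast markers (12 of 12, 8 higher) ran from 7.01 to 7.19 in control and from 7.25 to 8.31 in treated livers. Treated replicate 3 was their highest (0.94) and was the lowest treated liver for ribosomal protein genes.

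Neutrophil markers (11 of 11, 2 higher) ran from 4.47 to 6.14 in control, highest in replicate 1, and from 4.50 to 4.85 in treated livers. Lymphocyte and NK cell markers (12 of 14, 9 higher) ran from 4.72 to 5.16 and from 4.85 to 5.06, with Ms4a1, Klrb1c and Ncr1 no brighter than the negative controls on any array. Plasma cell markers (5 of 5, 2 higher) ran from 6.37 to 6.66 and from 6.28 to 6.54. Sinusoidal endothelial markers (10 of 10, 1 higher) ran from 7.51 to 8.01 and from 7.36 to 7.78. Cholangiocyte markers (5 of 6, 0 higher, with Epcam and Cftr no brighter than the negative controls) ran from 5.03 to 5.17 and from 4.97 to 5.16, and erythroid markers (2 of 7, 1 higher) from 7.26 to 7.49 and from 7.17 to 7.48. The part of any of these cells in the ribosomal protein difference was not tested, and in whole liver a change in cell numbers and a change in RNA per cell cannot be told apart.

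Fau and Rplp0, ribosomal components outside the symbol rule with a probe set of their own, went the same way as most of the 44 genes. Fau, which encodes a ubiquitin-like protein fused to the ribosomal protein S30, was at 10.08, 10.01, 9.95 and 9.89 in control and 10.26, 10.25, 10.09 and 10.38 in the treated group, a difference of 0.26 ± 0.07 (limma adjusted p = 0.364). Rplp0, the base of the stalk that recruits translation factors, was at 9.65, 9.58, 9.46 and 9.65 in control and 9.75, 9.69, 9.68 and 9.86 in the treated group, a difference of 0.16 ± 0.06 (limma adjusted p = 0.585). In both genes all treated livers lay above all control livers.

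A list of genes named for elongation factors and of other genes with TOP messengers had a median log2 difference of 0.04. It includes Eef2k and Eef1e1, which are not themselves elongation factors. Of 26 listed genes 20 were measured, 13 higher and 7 lower. At an unadjusted p under 0.05 by limma, 4 of the 20 were higher and 0 lower, against 4.26% and 3.37% of all genes, and in 4 all treated livers lay above all control livers, against 2.52%. The difference between this list and the ribosomal protein genes was not tested. Naca, a subunit of the complex that meets new chains at the ribosome, was higher by 0.22 ± 0.07. Eef1a1, which delivers aminoacyl-tRNA, was higher by 0.15 ± 0.05, with controls at 10.96 to 11.13 and treated livers at 11.15 to 11.25. Npm1, a nucleolar chaperone, was higher by 0.21 ± 0.07. Initiation factors were centred near 0 (22 of 29 measured, 9 higher and 13 lower, median -0.0088). At an unadjusted p under 0.05 by limma, 1 was higher (4.55%) and 0 lower, near the 4.26% of all genes that were higher. Eif2s2, a subunit of the factor that brings the initiator tRNA, was higher by 0.12 ± 0.04, while Eif3a and Eif2b3 differed by 0.10 ± 0.05 and -0.07 ± 0.04.

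Of 70 listed factors that build ribosomes 66 were measured, 24 higher (36.4%) and 42 lower, with a median log2 difference of -0.02. Among all protein-coding genes 45.2% were higher, and 33.7% of those at a mean signal of 8 or more. At an unadjusted p under 0.05 by limma, 3 of the factors were higher (4.55%) and 4 lower, near the shares of all genes. Noc4l, of the small subunit precursor, differed by -0.16 ± 0.05 and Bop1, of large subunit maturation, by -0.25 ± 0.09, while nucleolin, Ncl, differed by 0.13 ± 0.05. Among 24 of 26 listed regulators of ribosomal protein production, 11 were higher and 13 lower (median -0.02). At an unadjusted p under 0.05 by limma, 2 were higher (8.33%) and 2 lower, against 4.26% and 3.37% of all genes. Sesn1, a stress-induced inhibitor of mTOR signalling, was at 6.76, 6.72, 6.66 and 6.79 in control and 7.18, 7.14, 7.01 and 6.91 in the treated group, a difference of 0.33 ± 0.07 without overlap (limma adjusted p = 0.229). Tsc2, which also restrains mTOR, differed by -0.25 ± 0.07 and Larp4, which binds poly(A) tails, by -0.27 ± 0.09. None of the genes in these lists passed the correction over all genes.

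Mitochondrial ribosomal protein genes, which encode the separate ribosome inside mitochondria, showed a difference closer to 0. The 73 measured had a median log2 difference of 0.02, with 50 higher (68.5%, against 49.1% of all genes) and 23 lower. At an unadjusted p under 0.05 by limma, 1 (1.37%) was higher and 0 lower, against 4.26% and 3.37% of all genes. That gene was Mrpl13, higher by 0.24 ± 0.07. Mrps22 (0.16 ± 0.07) and Mrpl3 (0.13 ± 0.06) came next. Their gene-centred mean was highest in treated replicate 2 (0.13) and lowest in treated replicate 3 (-0.10), a wider spread among treated livers than for cytosolic genes. The difference between the 2 kinds of ribosome was not tested. Protein-coding genes at a mean signal of 8 or more, where 20 of the 44 genes lie, had a median of -0.05 over 2475 genes, and those 20 a median of 0.14 with 17 higher.

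**Figure D4:**
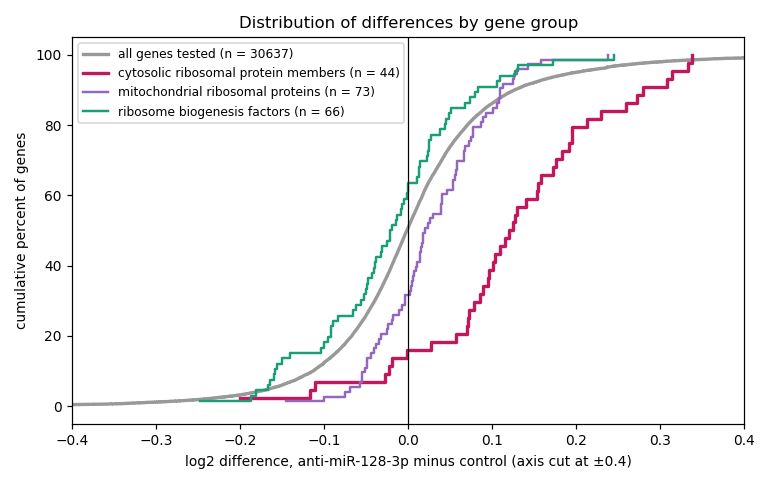
Cumulative percent of genes (vertical axis) at or below each log2 difference between anti-miR-128-3p and control livers (horizontal axis) for all 30637 genes tested, the 44 cytosolic ribosomal protein genes, 73 mitochondrial ribosomal protein genes and 66 ribosome biogenesis factors. The cytosolic curve crosses 50% at a median of 0.12, against -0.0017, 0.02 and -0.02 for the others, and it ends at 0.34, within the range of all genes.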

How the data were processed

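The authors deposited log2 values, which the submitters' processing notes credit to RMA, a method that summarises normalized probe intensities per probe set. Such normalization gives all arrays a like distribution and can narrow differences shared by most genes. Version, filters and build were not given in the sources used here. Of 72688 rows, 6732 array controls were left out. Of 65956 transcript probe sets, 33206 are not listed in the platform annotation and 31095 name exactly 1 gene (symbols updated through Entrez IDs to RefSeq GRCm38.p6), giving 30637 genes. Left out were 1519 probe sets naming several genes and 136 with 1 symbol for several Entrez genes.

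Treated and control livers were compared with limma 3.58.1 in R 4.3.3 (lmFit, eBayes, two-sided, no covariate, 8 arrays), with p-values adjusted over all genes by Benjamini and Hochberg's method. The steps were tested on simulated data. Gene lists are described by counts and medians. The ribosomal protein genes and the lists were chosen with earlier results of these data known. Named are the 10 genes with the smallest p in each direction, the 5 with the highest and lowest signal, paralogs, a fixed set with known roles, and up to 3 genes of each other list. Of the fixed set, Rps6, Rps3, Rpl5, Rpl10 and Rpl13a share their probe sets with other genes and Rps27a is not in the annotation used here. Alternatives were moderation, array weights, dim-gene filters, other probe set choices, normalization, the replicate number as a block and leaving out each array. Python 3.11.15, pandas 2.3.3 and matplotlib 3.10.9 made tables and plots. The number of arrays limits the precision of every value.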

Additional observations from a re-analysis of the deposited data

Results flagged for a closer look

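In 10 of 96 groups of 4 livers (each gene, and the means over genes, in each treatment group), 1 liver lay far from the other 3. Chance alone would set apart about 1 group in 20. Treated replicate 3 was low in Rpl37a (7.77, the nearest other liver at 8.20), Rps14 (5.94, nearest 6.18), Rps28 (5.79, nearest 5.98) and the mean over small subunit genes (-0.0122, nearest 0.08), and was high in Rpl32l (10.43, nearest 10.30). Treated replicate 1 was high in Rps23rg1 (7.48, nearest 7.17). Control replicate 4 was high in Rps24 (6.61, nearest 6.36) and Rpl22l1 (4.56, nearest 4.42). Control replicate 1 was high in Rpl6 (6.92, nearest 6.82) and control replicate 2 in Rps27l (8.10, nearest 8.01).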

How the results depend on the processing

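The median log2 difference over all ribosomal protein genes kept its sign under all 20 alternatives. It was 0.11 to 0.15 with single livers left out, and 0.12 with the replicate number as a block. The large subunit median was 0.16 with standard ribosomal proteins only, and 0.11 to 0.15 with single livers left out. The small subunit median was 0.11 to 0.14 with single livers left out, 0.092 after quantile normalization and 0.097 with arrays centred on their median. Large minus small ran from -0.0234 to 0.0211 with single livers left out and so changed sign. limma called 0 genes except without control replicate 4, where it called 1, which is not a ribosomal protein gene, and 0 ribosomal protein genes passed under any alternative. With the block, 17 genes were higher and 1 lower at an unadjusted p under 0.05 by limma, against 3.94% of all genes higher. The replicate numbers gave no pairing (correlations of same-numbered deviations from -0.12 to -0.02, and 0 of 4 treated livers correlated best with their own number). Of the 44 genes, 40 kept their sign. Rpl11 was at 0.0040 with array weights and between -0.0332 and 0.0508 with single livers left out, Rpl39l between -0.0519 and 0.0193, Rpl3l between -0.0388 and 0.0136, and Rpl4 at -0.036 after quantile normalization. The cause of these changes was not tested. Using probe sets of the gene's own chromosome only, an alternative chosen after seeing the data, gave 0.12 over 42 genes.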
